A study of Xenopus laevis with 12 samples.

Results

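The genes described here differed between Geminin-injected and uninjected ectoderm of late gastrulae while their level in normal ectoderm hardly moved, on average, between the early and the late gastrula. They were chosen on log2(intensity + 16), quantile normalised over 12 arrays. A probe set, a group of probes summarised as 1 value, was taken when it had 1 gene symbol and an overall mean level of at least 6. It had to differ by at least 1.5-fold in the same direction in all 3 stage 12 pairs of injected and uninjected explants, and the uninjected stage 12 mean had to lie within 0.5 of the uninjected stage 10.5 mean. Geminin itself (gmnn) was left out. Of 15491 probe sets on the array, 6352 had 1 symbol and a mean of at least 6, 3052 of these were stable by this limit, and 119 met every condition. They stand for 117 gene symbols. In injected explants 31 were higher and 88 lower. On the deposited scale, without quantile normalisation, the same conditions gave 12 higher and 146 lower, which included 9 of the 31 and 78 of the 88, so the count of higher members in particular depends on the scale.

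Explants of Xenopus laevis ectoderm (animal caps) were profiled on one-colour Affymetrix arrays, 3 per group. The groups were uninjected and Geminin-injected explants at stage 10.5 (early gastrula) and stage 12 (late gastrula). Both cells of 2-cell embryos had received 300 pg of RNA for a Geminin form named as lacking its coil, on the animal side. The labels do not say whether this was the dose for each cell or for the embryo. Explants were taken at stage 8 to 9, 80 to a sample, and cultured at 25 °C in a saline (0.7x MMR). Since the controls had received no injection, every difference includes any effect of the injection itself. Arrays of 1 experiment number and stage form a pair. Nothing says whether the numbered experiments used embryos of separate parents, so p-values measure the spread between these samples.

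Geminin binds the replication licensing factor Cdt1 and holds back the loading of the replicative helicase onto origins. It also takes part in the choice between neural and epidermal fate in early embryos. Whether the injected form, named as lacking its coil, binds Cdt1 was not measured here. Bone morphogenetic protein (BMP) signalling steers gastrula ectoderm towards epidermis: BMP ligands activate receptor-regulated Smad proteins, which switch on transcription factor genes such as the ventx and gata genes and also inhibitors of the pathway itself. During gastrulation many maternal RNAs are cleared and many embryonic genes are switched on; the genes described here are ones whose mean level was steady over that time.

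The library labelled uninjected, stage 12, experiment 3 carried a deposited gmnn.L intensity of 4576, against 116 and 278 in the other uninjected stage 12 arrays and 3203 to 13754 in the injected ones, and it enters both the choice and the stage 12 values of every member. Arrays of experiments 2 and 3 were closely alike at stage 12 (r = 0.990 uninjected and 0.985 injected), and for experiment 2 the uninjected array titled stage 12 has the earlier stage in its description. Chosen without the pair of experiment 3, 94 probe sets were higher and 104 lower, which included 26 of the 31 and 75 of the 88. Chosen without the pair of experiment 1 there were 76 and 122, and without experiment 2 there were 69 and 126. Of 17 ectoderm marker genes all passed the filter on low signal, and their summed intensity was 18747 to 24757 and 25858 to 32335 in uninjected and 12712 to 16100 and 17170 to 20272 in injected explants at stages 10.5 and 12. Of 20 mesoderm and 20 endoderm marker genes only 7 each passed this filter. Duplicate copies of a gene were counted apart in these lists. The endoderm sum was 598 to 626 in uninjected and 293 to 439 in injected explants at stage 12, the mesoderm sum 356 to 449 and 441 to 550, and the part of these sums in the members' values was not tested. In these bulk samples fewer cells of a type and less RNA per cell cannot be told apart.

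On the quantile-normalised scale lower members outnumbered higher ones in most function classes, as they did over all members (88 lower and 31 higher). Classes were assigned by hand from gene names once the members were known. Genes of the BMP pathway (8 probe sets) and of chromatin (4) held members that were lower in injected explants and none that were higher. Other transcription factors and co-factors numbered 16 lower and 2 higher, signalling and receptor genes 9 and 2, and genes of the cell cycle, replication and spindle 10 and 2. Mitochondrial and redox genes ran the other way, with 6 higher and 1 lower. These 6 include both copies of prdx3, read by probe sets named after 1 transcript cluster. Genes for RNA processing, ribosome biogenesis and translation split into 6 lower and 3 higher, metabolism and transport into 8 and 5, and cytoskeleton and trafficking into 7 and 3. Stress, survival and protein turnover had 3 lower and 2 higher, and 16 lower and 6 higher probe sets were not classed. As background, 2.88% of the 3052 stable probe sets were lower and 1.02% higher by the same limit, against 7.92% and 5.51% of all 6352. These stage 12 values chose the members, so they are given as descriptions with no test.

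**Figure D1:**
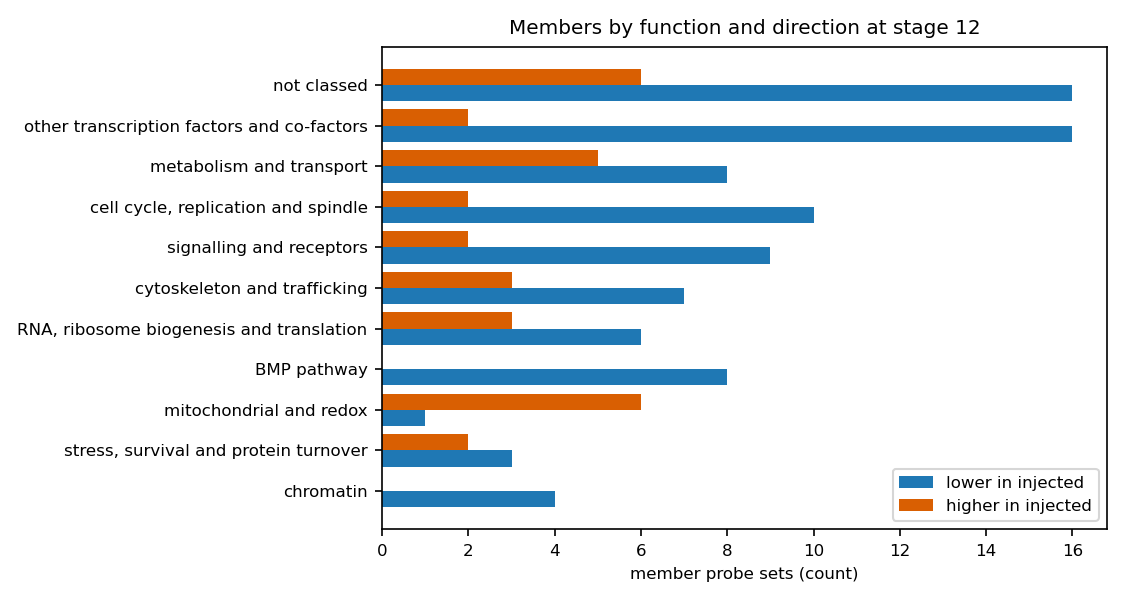
Number of member probe sets (horizontal axis, count) in each function class (vertical axis), split into those lower and those higher in injected explants at stage 12. The BMP pathway and chromatin bars are all in the lower direction, while mitochondrial and redox genes show 6 higher and 1 lower.

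The limits of the choice leave members of much the same values on either side. The higher members with the least change were atp6v0d1.L (0.60 in its weakest pair) and pebp1.2.S (0.60), while nmt2.L (0.58) and osbpl1a.L (0.58) fell just outside. On the lower side rdh10.S and slc22a5.L (both 0.60 in size) were inside and luc7l3.L and pim1.L (both 0.58) outside. For stability, alg5.L (0.49) and smad6.L (0.49) were inside and ap3s2.S (0.50) and rfx2.S (0.50) outside. For the overall mean, cdca5.S (6.06) and pnp.L (6.08) were inside and hunk.S (5.79) and rabl2b.L (5.79) outside. The limit concerns means: the 6 uninjected arrays lay within 1 log2 unit of each other for 61 of the 119, with a median range of 0.97 and a widest range of 3.18 (MGC115708). The uninjected level of higher members drifted slightly down with stage (median -0.32, from -0.48 to 0.46) and that of lower members slightly up (median 0.20, from -0.49 to 0.49).

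Genes at several levels of the BMP pathway were lower in injected explants: a ligand, secreted regulators, intracellular inhibitors and target transcription factors, with means from -1.50 to -0.997 on the log2 scale. The ligand gene bmp4.S had levels of 7.73, 8.09 and 8.05 in uninjected explants at stage 12 (experiments 1, 2 and 3) and 6.10, 7.103 and 7.21 in injected ones. At stage 10.5 the levels were 7.64, 8.02 and 6.80 uninjected and 6.30, 5.64 and 5.81 injected. Every injected array lay below every uninjected array of its stage, with a stage 12 change of -1.16 ± 0.42 (SD, n = 3 pairs).

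The secreted regulators szl.S and twsg1.L were both lower at stage 12. Sizzled, from szl, is known in Xenopus as a BMP-induced feedback inhibitor of the proteases that cut chordin, and its levels were 9.06, 9.06 and 9.06 uninjected against 7.29, 8.33 and 7.61 injected. At stage 10.5 szl.S stood at 9.63, 8.35 and 7.91 uninjected and 7.36, 5.94 and 6.87 injected. Its groups did not overlap at either stage, and experiment 2 had the least difference at stage 12 and experiment 3 the least at stage 10.5. The levels of twsg1.L, which encodes the BMP-binding protein Twisted gastrulation, were 10.44, 10.27 and 10.26 uninjected and 9.53, 9.16 and 9.09 injected at stage 12, a change of -1.06 ± 0.13 (SD, n = 3 pairs). At stage 10.5 they were 10.11, 10.001 and 9.71 uninjected and 9.24, 9.46 and 9.79 injected, and there the groups overlapped.

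The inhibitory Smad genes smad6.L and smad7.L, whose products block signalling inside the cell, parted at the earlier stage. The stage 12 levels of smad6.L were 9.15, 8.73 and 8.70 uninjected and 7.64, 8.05 and 7.41 injected, so the injected arrays were all lower. At stage 10.5 they were 8.07, 8.69 and 8.35 uninjected and 7.95, 8.45 and 8.89 injected, with overlap. For smad7.L the stage 12 levels were 8.87, 8.13 and 7.98 against 7.02, 6.64 and 6.82, the largest change among these 8 members at -1.50 ± 0.35 (SD, n = 3 pairs). At stage 10.5 smad7.L levels were 8.31, 7.57 and 7.63 against 7.11, 6.47 and 7.36, again without overlap. Further probe sets of smad7.L gave -0.97 and -1.14 at stage 12.

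Among transcriptional targets, the homeobox gene ventx1.1.L had levels of 8.32, 8.71 and 8.73 uninjected and 7.11, 7.40 and 7.04 injected at stage 12. Its stage 10.5 levels were 8.75, 8.09 and 8.43 uninjected and 6.39, 6.35 and 7.21 injected. No arrays of the groups overlapped, yet a second ventx1.1.L probe set gave 0.41 at stage 12 and 0.33 at stage 10.5, so its probe sets disagree. The related ventx2.1.S held nearly the same uninjected level at both stages (10.97, 10.77 and 10.78 and then 10.96, 10.79 and 10.77). In injected explants it was 9.53, 9.39 and 10.16 at stage 10.5 and 9.65, 10.15 and 9.74 at stage 12. For id2.L, whose product binds bHLH factors and keeps them from DNA, the stage 12 change was -1.08 ± 0.22 (SD, n = 3 pairs) at the highest level of the lower members (overall mean 10.8).

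**Figure D2:**
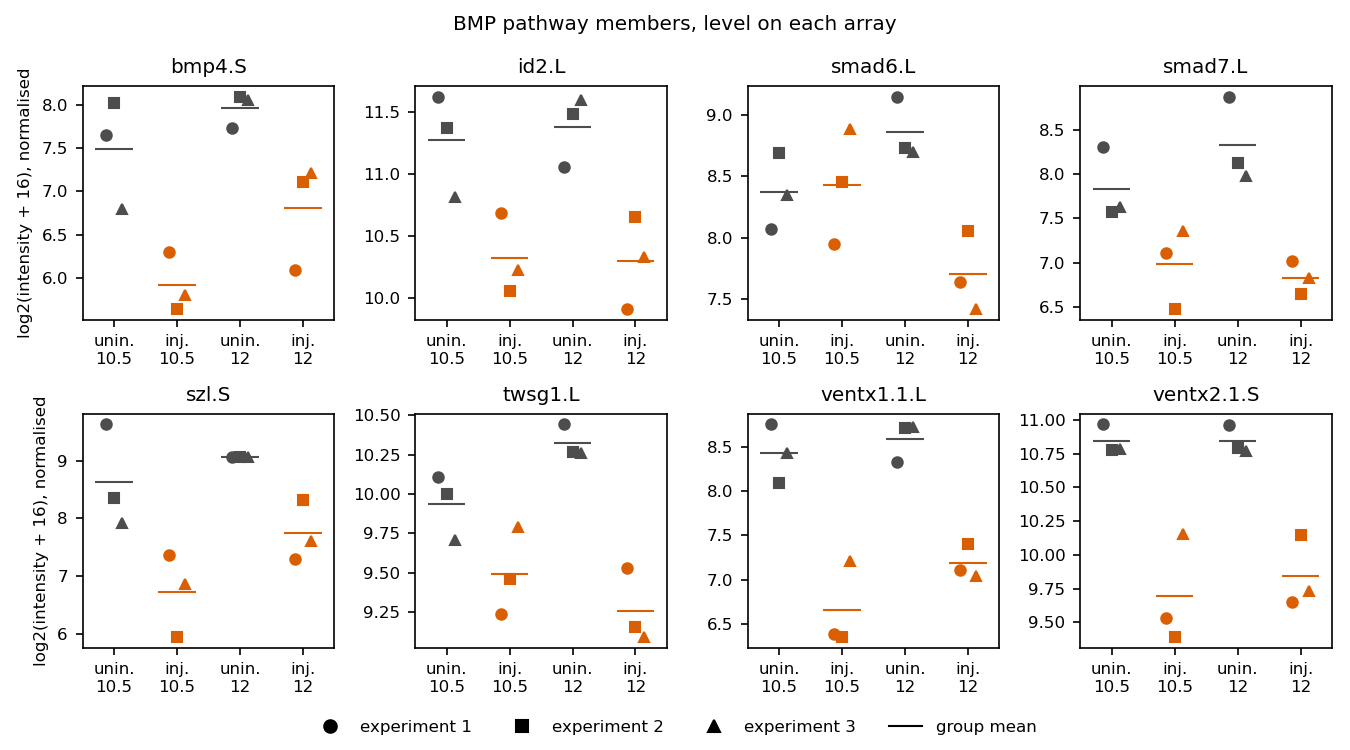
Normalised level, log2(intensity + 16), of the 8 BMP pathway members (vertical axes) on each array of the 4 groups (horizontal axes), with symbols for experiments and lines for group means. Injected arrays lie below uninjected ones at stage 12 in all 8 panels, whereas smad6.L and twsg1.L overlap at stage 10.5.

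A list of BMP ligands, receptors, Smads, regulators and targets had 52 probe sets above the signal filter (42 symbols), of which 25 were lower and 0 higher by the 1.5-fold limit in all 3 stage 12 pairs. Of these 52, 25 were stable in uninjected explants and 9 are members, gata2.L among them. Over all 11618 probe sets tested 8.0% were lower and 4.65% higher by that limit; these are values of the kind that chose the members, so they are a description. The 43 listed probe sets that are not members had 16 lower and a median stage 12 change of -0.63, against 0.09 over all probe sets tested. Those that were lower included bambi.L (-1.04), a pseudoreceptor, bmp7.1.L (-2.03) and msx1.S (-2.003), whose uninjected means were higher by 0.61, 2.49 and 2.59 at stage 12. In all 3 stage 12 pairs 8 of the 52 were above 0, among them the ligand genes bmp2.L (mean 0.73) and bmp2.S (0.52), the receptor gene acvr2b.L (0.65) and smurf1.L (0.55), for a ubiquitin ligase that targets Smads. Both bmp2 probe sets were dim (mean levels 5.45 and 5.52), with uninjected stage differences of -1.20 and -1.17. Those of acvr2b.L and smurf1.L were -0.86 and -0.79. Receptor and receptor-regulated Smad genes were uneven: the receptor gene bmpr1a.L gave -0.19, -0.24 and -0.29 in its probe sets and acvr1.L -0.69, while smad1.S gave 0.44 and 0.30 and smad9.S -1.63.

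The class of other transcription factors and co-factors held 16 of the lower members, some of them known from epidermis or the neural border. The zinc finger gene gata2.L, an early epidermal and BMP-responsive factor, had the largest change in this class, with stage 12 levels of 11.15, 9.69 and 9.70 uninjected and 8.95, 8.35 and 7.96 injected. Its stage 10.5 levels were 11.24, 10.74 and 9.54 uninjected and 9.07, 6.87 and 7.497 injected. The groups were apart at both stages, and experiment 1 had the highest level in all 4 groups. The distal-less gene dlx5.L stood at 9.29, 9.44 and 9.30 against 7.55, 8.61 and 8.17 at stage 12 and at 8.79, 9.51 and 8.48 against 6.96, 6.88 and 7.16 at stage 10.5. Its neighbour in the family, dlx6.S, showed a mean change of -0.90 at stage 12, and grhl3.L and znf750.L, both linked to epidermal differentiation (znf750 in human skin), showed -1.24 and -1.43. All 3 arrays of injected dlx5.L, dlx6.S and grhl3.L lay lower than the uninjected ones at each stage.

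At the neural border, pax3.L, a factor of border and crest specification, had stage 12 levels of 10.43, 10.30 and 10.39 uninjected and 9.12, 8.90 and 8.77 injected. At stage 10.5 they were 10.40, 10.33 and 9.04 uninjected and 9.29, 8.67 and 8.29 injected, where the uninjected array of experiment 3 reached down into the injected range. The homeobox gene meis3.S, known in Xenopus for its part in hindbrain patterning, had pair changes of -1.82, -1.65 and -1.67 at stage 12, among the steadiest of the larger ones. Its other copy, meis3.L, gave -1.04, -0.58 and 0.10. The border gene hes4.S gave -0.70, -0.60 and -1.29, with groups apart at stage 12 and overlapping at stage 10.5, and the LIM-domain co-factor gene ldb1.S gave -1.23, -1.57 and -1.20. Also lower were cited4.L (-1.24), a transcriptional co-activator gene, ccnt2.S (-0.97), encoding a cyclin of transcription elongation, tbpl1.L (-0.87), a relative of the TATA-binding protein, and the zinc finger genes znf217.L (-0.82) and znf268.L (-0.70). Of 29 neural crest and border probe sets on a list 10 were lower and 0 higher at stage 12, and of 44 epidermal ones 22 and 0. A neural plate and neuronal list of 24 held 4 lower and 2 higher and no member. The shares over all probe sets tested were 8.0% lower and 4.65% higher, and these stage 12 counts include the members themselves.

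Signalling genes included the largest change of all members. The kinase gene hunk.L had levels of 8.52, 8.16 and 8.104 in uninjected and 5.69, 5.32 and 5.61 in injected explants at stage 12. At stage 10.5 its levels were 8.02, 8.00 and 7.69 uninjected and 6.43, 6.29 and 6.73 injected. Injected levels were thus lower still at the later stage, with a stage 12 change of -2.72 ± 0.19 (SD, n = 3 pairs) and -1.71 in a dimmer probe set of the same copy. The ephrin receptor gene ephb3.L had pair changes of -1.34, -1.60 and -1.52, and dusp1.L, encoding a phosphatase of MAP kinases, -1.65, -1.25 and -1.50. The gas6.L gene, for a secreted ligand of receptor tyrosine kinases, gave -1.22, -1.22 and -1.25, the narrowest spread among them. The other copies gave stage 12 means of -1.88 (ephb3.S), -0.18 (dusp1.S) and -0.85 (gas6.S, dim at a mean level of 5.03). Other lower members were lpar4.L (-1.10), a lysophosphatidic acid receptor gene, pik3r1.L (-0.83), a regulatory subunit of phosphoinositide kinase, and prkag1.L (-0.84), a subunit of AMP-activated kinase.

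The heparan sulphate proteoglycan gene sdc4.L (syndecan) had 3 probe sets, of which 2 are members. Levels of the brighter of these were 7.63, 8.84 and 8.95 in uninjected and 6.98, 7.99 and 8.02 in injected explants at stage 12. Because experiment 1 ran low in both groups, the groups overlapped although each pair differed. The members gave -0.91 and -0.81 at stage 12 and -1.92 and -1.85 at stage 10.5, and the dim remaining probe set (mean level 5.58) gave -0.98 and -1.19.

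Lower genes of the cell cycle lay at different steps of it, and 7 of the 10 differed by less than 2-fold on average. The gene ccnd1.L, for a cyclin that drives entry into the cycle, differed most, with stage 12 levels of 9.34, 8.86 and 8.59 uninjected and 6.83, 6.97 and 7.43 injected. At stage 10.5 the levels were 8.64, 9.16 and 8.32 uninjected and 6.45, 6.64 and 6.45 injected, and the injected arrays were lower throughout. Its other copy, ccnd1.S, differed by -1.76 at stage 12 but was not stable in uninjected explants (0.57). The growth arrest gene gadd45g.L had stage 12 levels of 7.90, 8.06 and 8.11 against 6.69, 7.01 and 6.80. Spindle and chromosome genes were lower by smaller amounts: mzt1.S (-1.04) and tubgcp6.L (-0.74) of the gamma-tubulin complex, bora.S (-0.99), an activator of Aurora kinase, cdca5.S (-0.82), encoding the cohesion factor sororin, and the kinetochore gene mis12.L (-0.73). A brighter bora.S probe set (mean level 8.77) gave -0.20 at stage 12, with an uninjected stage difference of -1.71. Of the replication genes, zmcm3.L, for an MCM helicase subunit, was at -0.76, and pcna.S, the sliding clamp of replication, was higher.

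Levels of pcna.S were 9.09, 9.89 and 9.72 in uninjected and 10.23, 10.67 and 10.45 in injected explants at stage 12, with no overlap. At stage 10.5 they were 9.42, 9.44 and 9.80 uninjected and 9.59, 10.37 and 10.20 injected, with overlap. The brighter copy pcna.L gave 0.31 at stage 12. The other higher gene of this class, nsmce1.L, encodes a subunit of a chromosome maintenance complex and gave 0.63, 0.89 and 1.04. A list of 91 mitotic and cyclin probe sets held 11 higher and 3 lower by the stage 12 limit, with ccnd1.L its 1 member, and a list of 72 for replication and damage held 9 higher and 5 lower with 3 members, where 4.65% of all probe sets tested were higher and 8.0% lower.

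All 4 chromatin members encode enzymes or readers of histone marks, and all were lower. The histone methyltransferase gene kmt5a.S had stage 12 levels of 8.46, 7.82 and 7.95 uninjected and 6.65, 6.43 and 6.33 injected. Its stage 10.5 levels were 9.11, 7.98 and 7.57 uninjected and 6.99, 6.97 and 6.91 injected. The groups were apart at both stages, while the other copy, kmt5a.L, gave 0.50 at stage 12 with an uninjected stage difference of -1.19. The heterochromatin methyltransferase gene suv39h2.L differed by -0.93, and the YEATS-domain genes mllt1.S and yeats4.S by -1.29 and -0.78. A list of chromatin regulators with 36 probe sets (31 symbols) had 0 lower and 0 higher by the same limit. None of these 4 members was counted in it. The list names kmt5a only by an older symbol, setd8, and does not hold suv39h2, mllt1 or yeats4.

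Among genes for RNA handling, zfp36l1.S, whose product promotes decay of AU-rich RNAs, had stage 12 levels of 6.998, 8.15 and 8.49 uninjected and 5.94, 6.71 and 6.46 injected. Its injected level was similar at stage 10.5 (6.07, 6.06 and 5.90, against 7.62, 8.57 and 7.70 uninjected). The RNA-binding protein gene hnrnpr.S gave nearly equal pair changes (-1.37, -1.36 and -1.38), yet its other 3 probe sets gave only -0.24, -0.40 and -0.28. Lower by less were eif5.S (-0.83), an initiation factor gene, yrdc.L (-0.82), which modifies transfer RNA, nop58.S (-0.75), a core protein of small nucleolar particles, and the helicase gene ddx49.S (-0.73).

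On the higher side of the same class, dkc1.L, for the pseudouridine synthase dyskerin, had the largest mean of all higher members. Its stage 12 levels were 6.12, 5.43 and 5.61 uninjected and 6.88, 7.22 and 7.45 injected. Stage 10.5 levels of dkc1.L were 5.83, 6.10 and 6.57 uninjected and 6.94, 7.49 and 7.23 injected, and the injected arrays were above the uninjected ones at both stages. Its other 2 probe sets went the other way at stage 12 (-0.58 and -0.45), the second of them far brighter at a mean level of 10.1, so the direction of dkc1.L depends on the probe set. The transfer RNA modifier gene elp3.L gave 1.15, 1.00 and 0.76 and ybx2.L, a Y-box protein gene that stores maternal RNA in frog oocytes, 1.65, 0.66 and 0.78. The copy ybx2.S gave 0.53.

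Mitochondrial and redox genes formed the largest named class of higher members, with means from 0.63 to 1.01. Both copies of prdx3, the mitochondrial peroxiredoxin gene, are members. Levels of prdx3.L were 8.38, 8.66 and 8.60 in uninjected and 9.23, 9.50 and 9.28 in injected explants at stage 12, and those of prdx3.S were 8.00, 8.51 and 8.33 uninjected and 8.96, 9.54 and 9.09 injected. No arrays overlapped, although both probe sets are named after 1 transcript cluster, so they may share transcripts. The mitochondrial thioredoxin reductase gene txnrd2.S gave 1.17, 0.71 and 0.82. The gene gfer.L, for a sulphydryl oxidase of the intermembrane space, gave 1.43, 0.76 and 0.83, and nfu1.S, an iron-sulphur cluster carrier gene, 0.68, 0.70 and 0.71. The smallest mean was that of coq9.L (0.63), needed for coenzyme Q synthesis. Of 75 probe sets of the respiratory chain itself on a list, 2 were higher, 2 lower and 0 members (over all, 4.65% higher and 8.0% lower). The 1 lower gene of the class, selenot.L (-0.87), had 4 further probe sets at -0.18 to 0.48.

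In metabolism, gatm.L, for the first enzyme of creatine synthesis, was among the most reduced of all members. Its stage 12 levels were 10.52, 10.42 and 10.34 uninjected and 7.06, 8.25 and 7.95 injected. In the early gastrula they were 10.09, 10.51 and 10.17 uninjected and 7.14, 8.06 and 7.64 injected, so the gap was as wide at the earlier stage. A dim second gatm.L probe set (mean level 5.51) gave 0.03. Creatine kinase, ckb.L, was higher, with pair changes of 0.89, 0.68 and 0.62. Pair changes were -2.26, -1.23 and -1.58 for pnp.L (purine nucleoside phosphorylase) and -0.63, -1.07 and -1.70 for guk1.S (guanylate kinase). A second guk1.S probe set gave -0.71, while both probe sets of the other copy, guk1.L, gave -0.02 and 0.24. The amino acid transporter gene slc7a8.S (-1.36), the carnitine transporter gene slc22a5.L (-0.91), fut1.S (-1.07), rdh10.S (-0.86), which starts retinoic acid synthesis, and the glycosylation gene alg5.L (-0.82) were lower too. Higher ones were dio3.L (0.89), which inactivates thyroid hormone, elovl5.L (0.89) of fatty acid elongation, ptgr1.1.L (0.87) and the proton pump subunit gene atp6v0d1.L (0.70).

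The gene rnd1.L appears on both sides of the cytoskeletal class. One probe set had stage 12 levels of 10.61, 10.50 and 10.53 uninjected and 11.96, 11.46 and 11.50 injected, and the other 9.48, 9.60 and 9.63 uninjected and 8.41, 8.94 and 8.28 injected. Neither showed any overlap, at stage 12 or at stage 10.5, so no direction can be given for the gene. The copy rnd1.S gave -0.28. Lower cytoskeletal members were rilpl2.L (-1.45), cdc42ep4.S (-1.30), tubb.L (-1.16, with -0.03 in a brighter probe set), dpysl2.L (-1.11), dynll1.L (-0.96) and lsp1.S (-0.70). Higher ones were the autophagy gene map1lc3a.S (0.91) and the endocytic gene necap1.S (0.84). The other copies gave 0.25 (map1lc3a.L, dim at a mean level of 4.71) and -0.28 (necap1.L).

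Further lower members were birc2.S, an inhibitor of apoptosis gene, ddit4.S (-1.13), a stress-induced brake on TOR signalling, and dnajb14.S (-1.29), a co-chaperone gene. Levels of birc2.S were 5.89, 8.41 and 8.55 uninjected and 5.196, 7.06 and 7.46 injected at stage 12. The arrays of experiment 1 were far below the others in both groups, so the groups overlapped and the steady mean hid a wide spread. The copy birc2.L gave -0.31 at stage 12. Of the unclassed genes, olfm4.L, for a secreted glycoprotein, had stage 12 levels of 7.55, 8.05 and 8.26 against 5.87, 6.61 and 6.49, and ier5l.S gave -1.39, -1.56 and -1.79. Both copies of midn were members, midn.L at -0.90 and midn.S at -1.11, as were both of MGC75753, at -1.36 and -1.26.

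Other higher members included the transcription factor genes gabpb1.S and max.S and the signalling genes mios.L and nfkbia.S. Levels of gabpb1.S, for a subunit of a factor that drives nuclear genes of mitochondria, were 6.81, 7.002 and 7.07 uninjected and 8.95, 7.91 and 8.102 injected at stage 12. Experiment 1 had the greatest gap, with pair changes of 2.13, 0.91 and 1.03. The mios.L gene, of the machinery by which amino acids activate TOR, had levels of 5.47, 6.18 and 6.28 uninjected and 7.14, 7.096 and 7.15 injected. Its stage 10.5 levels were 7.82, 5.24 and 5.81 uninjected, so its steady mean rests on a wide spread there. The brighter copy mios.S was lower in all 3 stage 12 pairs (-0.53, -0.36 and -0.01). For max.S, the partner of Myc, pair changes were 0.68, 0.98 and 1.54, and for nfkbia.S, the inhibitor of NF-kappaB, 0.95, 0.68 and 1.05, while nfkbia.L gave -0.60. A brighter max.S probe set gave 0.15, 0.81 and 0.90, and the still brighter copy max.L a mean of 0.28. The others included rdd1.L (1.29), otud3.L (0.79), a deubiquitinase gene, trim39.L (0.84), a ubiquitin ligase gene, tmem37.S (0.87) and tmem161a.L (0.77). No higher member reached 2-fold in all 3 pairs, and 31 lower members did.

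**Figure D3:**
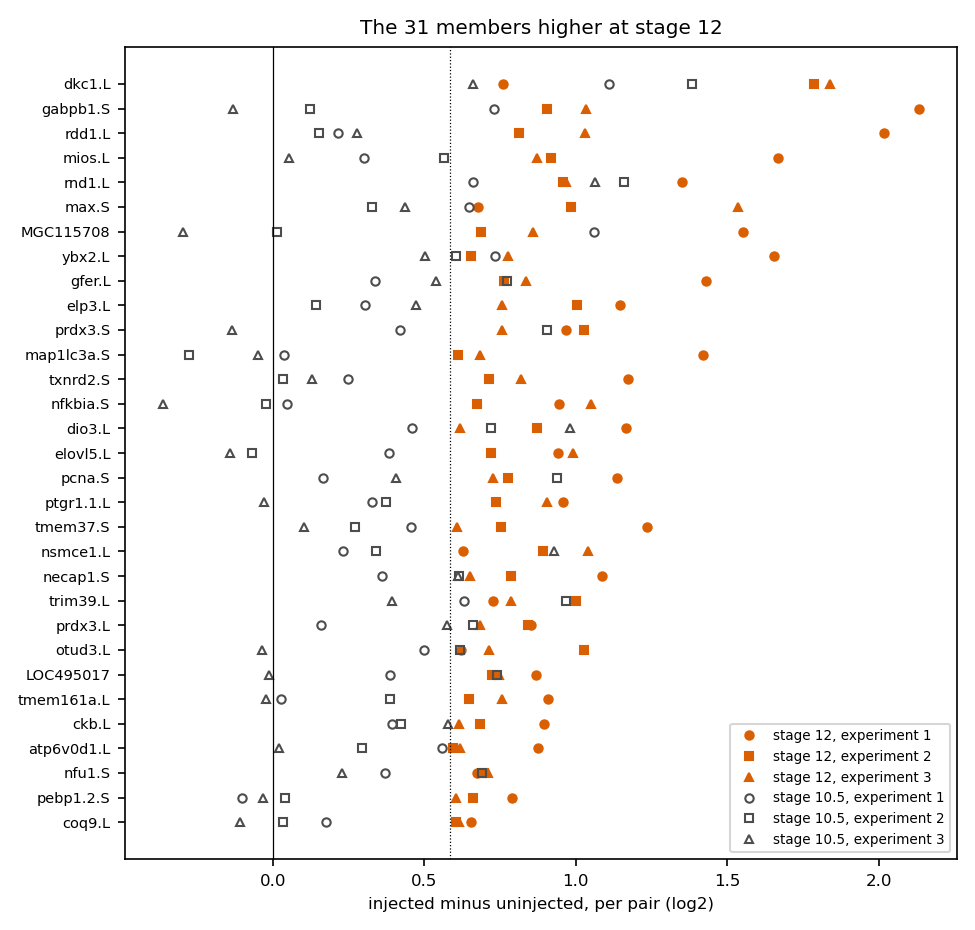
Pair changes (injected minus uninjected, log2, horizontal axis) of the 31 members higher at stage 12 (vertical axis, by mean), with filled symbols for stage 12 and open ones for stage 10.5, and the 1.5-fold limit as a dotted line. Most open symbols lie to the left of the filled ones, and some reach into the range of the filled ones, among them those of rnd1.L and dkc1.L.

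At stage 12 the injected and uninjected arrays did not overlap for 27 of the 31 higher and 79 of the 88 lower members. The same held for 21.1% higher and 16.7% lower of all 11618 probe sets, and the choice of members used these arrays.

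The stage 10.5 pairs asked whether these genes already differed in the early gastrula. This contrast did not choose the members, although its uninjected arrays set the stability limit and so are not wholly apart from the choice. The fit also shared the spread of each probe set over all 12 arrays. The stage 12 pairs that chose the members therefore enter its p-values. Most lower members had already fallen: in limma's paired fit with Benjamini-Hochberg adjustment over 11618 probe sets, 57 of 88 fell and 4 rose, against 7.06% lower and 3.31% higher among all probe sets tested and 7.68% and 3.56% among the 6352 with 1 symbol and a mean of at least 6. Of the 31 higher members 6 rose and 0 fell. The median stage 10.5 change was -0.84 for the lower and 0.36 for the higher members, against 0.05 over all. All 119 passed the filter on low signal. In an unpaired fit 28 lower members fell, 0 rose, and 1 higher member rose, while all probe sets gave 240 lower and 22 higher. In a paired fit of the stage 10.5 arrays only, 60 lower members fell, 5 rose, and 9 higher members rose. All probe sets then gave 1032 lower and 831 higher. Without the stage 10.5 pair of experiment 1, 2 or 3, the higher members that rose numbered 1, 1 and 3, the lower members that fell 39, 39 and 52, and the lower members that rose 4, 0 and 1. Members chosen without the stage 12 pair of experiment 3, the one with the high gmnn.L control, gave 9 of 94 that rose and 60 of 104 that fell. Without that of experiment 1 they gave 11 of 76 and 62 of 122, and without that of experiment 2 they gave 6 of 69 and 76 of 126.

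Groups at stage 10.5 did not overlap for 10 of the higher members, all with injected arrays above, and for 57 of the lower members, 56 with injected arrays below and 1 (myc.S) above. Over all probe sets 6.82% were apart with injected arrays above and 8.29% below. Choosing members without the uninjected stage 10.5 array of 1 experiment, and reading the change in that experiment's own pair, was added after seeing the data. The median was then 0.33, 0.33 and 0.18 for higher and -0.99, -0.97 and -0.60 for lower members in experiments 1, 2 and 3. The medians over all probe sets in these pairs were 0.06, 0.04 and 0.01. In those held-out pairs 66 of 73, 74 of 83 and 78 of 92 lower members were below 0. Of the higher members 27 of 29, 24 of 28 and 35 of 50 were above 0.

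The genes that fell at stage 10.5 came from every class of lower members except the single mitochondrial one. Over all lower members 57 of 88 (64.8%) fell, and the counts of single classes stand beside that share. The BMP pathway had 6 of 8: the fitted change was -1.91 ± 0.26 for szl.S (SE, n = 3 pairs, adjusted p = 0.000642), -1.77 ± 0.20 for ventx1.1.L (adjusted p = 0.000261) and -1.57 ± 0.25 for bmp4.S (adjusted p = 0.00163). The others were ventx2.1.S (-1.15), id2.L (-0.94) and smad7.L (-0.86, adjusted p = 0.0193). In the unpaired fit 4 of the 6 passed, without id2.L and smad7.L. Those that did not pass in the paired fit were twsg1.L (-0.44, adjusted p = 0.114) and smad6.L (0.06, 95% interval -0.36 to 0.48). Over the whole BMP list, members included, 21 of 52 probe sets fell and 2 rose, with a median of -0.54. The 2 that rose were the dim probe sets of bmp2. Among all probe sets tested 7.06% fell and 3.31% rose, with a median of 0.05. Further smad7.L probe sets did not pass in the paired fit (-0.50, adjusted p = 0.154, and -0.48, adjusted p = 0.197). Nor did the second ventx1.1.L probe set (0.33, adjusted p = 0.198).

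The smallest adjusted p-values belonged to gatm.L (-2.65 ± 0.21, adjusted p = 5.38e-05), sdc4.L, ccnd1.L (-2.19 ± 0.23, adjusted p = 0.000153), MGC75753.L (-1.17), gata2.L (-2.70 ± 0.29, adjusted p = 0.000172), gadd45g.L (-2.21) and zfp36l1.S (-1.96). All 3 pairs were negative for each of these. Among other transcription factors 10 of 16 fell, such as dlx5.L (-1.92), dlx6.S (-1.90) and grhl3.L (-1.65), and 1 rose. All 4 chromatin genes fell, from -1.26 for kmt5a.S to -0.92 for suv39h2.L. In an unpaired fit only yeats4.S of them passed (adjusted p = 0.0479), beside 0.0503 for suv39h2.L, 0.0626 for mllt1.S and 0.0818 for kmt5a.S. Of 9 signalling probe sets 6 fell, and of 10 in the cell cycle class 6 fell and 2 rose. Most of these class counts lie near the share over all lower members, 57 of 88 (64.8%).

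Several lower members had larger differences at stage 10.5 than at stage 12. The gene birc2.S was at -2.01 ± 0.39 (SE, n = 3 pairs, adjusted p = 0.00581) with pair changes of -3.16, -2.49 and -0.38, the least of them in experiment 3. For gadd45g.L the stage 10.5 pairs were -2.54, -2.84 and -1.24, against -1.21, -1.05 and -1.31 at stage 12, and for dlx6.S -2.06, -2.76 and -0.88 against -1.08, -0.66 and -0.95. The copy gadd45g.S gave means of -1.23 at stage 10.5 and -0.21 at stage 12. Differences between the stages were not tested, because stage 12 chose the members.

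Some lower members showed a stage 12 difference with little at stage 10.5. The stage 10.5 change was -0.10 (95% interval -0.52 to 0.31) for rilpl2.L, 0.21 (-0.17 to 0.58) for gas6.L, 0.00 (-0.34 to 0.34) for alg5.L and 0.21 (-0.11 to 0.53) for ddx49.S. All 4 intervals stop short of a 1.5-fold fall, and these genes were picked after their values were seen. Among higher members the stage 10.5 intervals of nfkbia.S (-0.47 to 0.25), map1lc3a.S (-0.51 to 0.32), pebp1.2.S (-0.34 to 0.28) and coq9.L (-0.30 to 0.37) likewise stop short of a 1.5-fold rise.

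The 6 higher members that rose at stage 10.5 were rnd1.L in its brighter probe set (0.96 ± 0.12, adjusted p = 0.000357), dkc1.L (1.05 ± 0.23, adjusted p = 0.0112), ckb.L (0.47, adjusted p = 0.0121), dio3.L (0.72, adjusted p = 0.0212), trim39.L (0.66, adjusted p = 0.0225) and necap1.S (0.53, adjusted p = 0.0376). Only rnd1.L also passed in the unpaired fit. Of the 6 mitochondrial and redox genes none passed in the paired fit, and the nearest were prdx3.L (0.46, adjusted p = 0.0568) and nfu1.S (0.43, adjusted p = 0.0627). The dimmer rnd1.L probe set fell by 1.15 ± 0.16 (adjusted p = 0.000809), so the rnd1.L probe sets disagreed at this stage as well. Those of dkc1.L did too: the others gave -0.16 and -0.32 at stage 10.5, the latter far brighter at a mean level of 10.1.

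**Figure D4:**
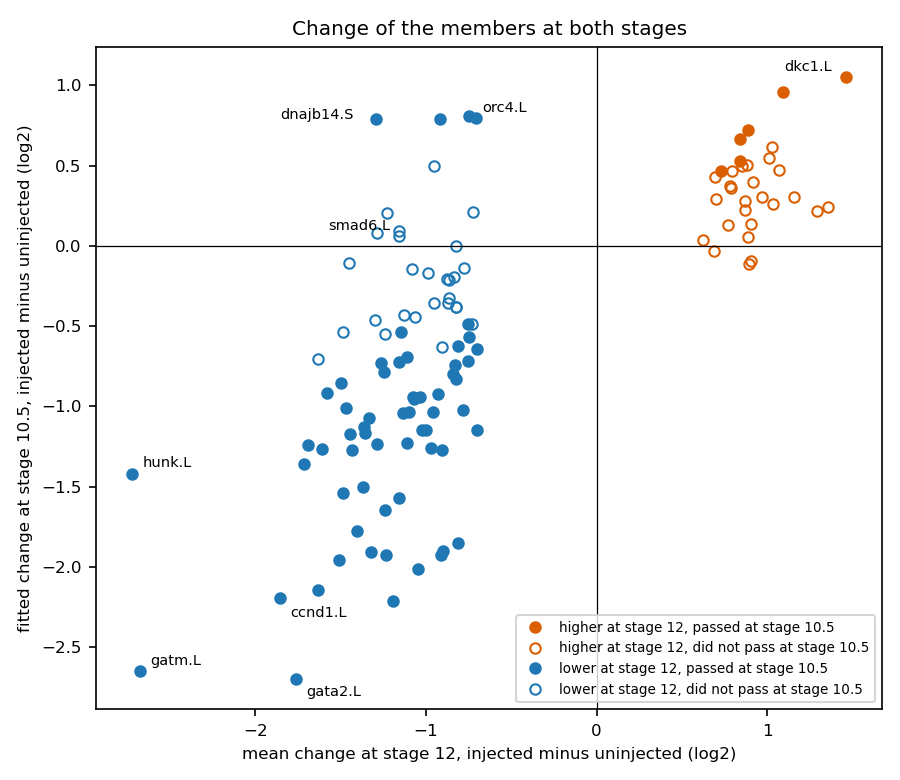
Fitted stage 10.5 change (vertical axis, log2) against mean stage 12 change (horizontal axis, log2) of the 119 members, filled where the stage 10.5 change passed the test. The stage 12 axis is empty around 0 because of the choice, 57 lower members lie filled below 0, and 4 lie filled above 0.

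A small set of lower members went the other way in the early gastrula. In the paired fit 4 of 88 (4.55%) rose, near the 3.31% over all probe sets tested. In injected explants myc.S rose by 0.79 ± 0.19 at stage 10.5 (SE, n = 3 pairs, adjusted p = 0.0209), orc4.L of the origin recognition complex by 0.81 ± 0.22 (adjusted p = 0.0369), the dynein regulator gene ndel1.S by 0.80 ± 0.15 (adjusted p = 0.00569) and dnajb14.S by 0.79 ± 0.20 (adjusted p = 0.0253). The crest factor gene ets1.S was at 0.50 ± 0.21 (adjusted p = 0.166), positive in 3 of 3 pairs. None of the 5 passed in the unpaired fit.

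Levels of myc.S were 8.49, 7.85 and 7.74 uninjected and 8.72, 8.86 and 8.87 injected at stage 10.5, with no overlap. At stage 12 they were 8.63, 7.75 and 7.98 uninjected and 7.94, 6.94 and 6.72 injected, where the injected array of experiment 1 overlapped the uninjected range. Its other probe sets gave 0.44 and 0.53 at stage 10.5 and -0.68 and -0.71 at stage 12, and their uninjected means were higher by 1.25 and 1.86 at stage 12, so the steady level of myc.S belongs to 1 of its 3 probe sets. The other copy, myc.L, did not share the early direction: its probe sets gave -0.45 and -0.20 at stage 10.5 and -1.59 and -1.80 at stage 12. For orc4.L the stage 10.5 levels were 6.65, 6.197 and 6.69 uninjected and 6.68, 7.29 and 7.99 injected, with almost no difference in experiment 1. Its stage 12 levels were 7.36, 6.91 and 6.59 uninjected and 6.57, 6.15 and 5.90 injected. The stage 10.5 pairs of dnajb14.S were 0.36, 1.07 and 0.94 and those of ndel1.S 0.72, 0.87 and 0.80. The copy ndel1.L gave a mean of 0.82 at stage 10.5 and -0.50 at stage 12, the latter from pairs of -1.39, -0.20 and 0.08.

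**Figure D5:**
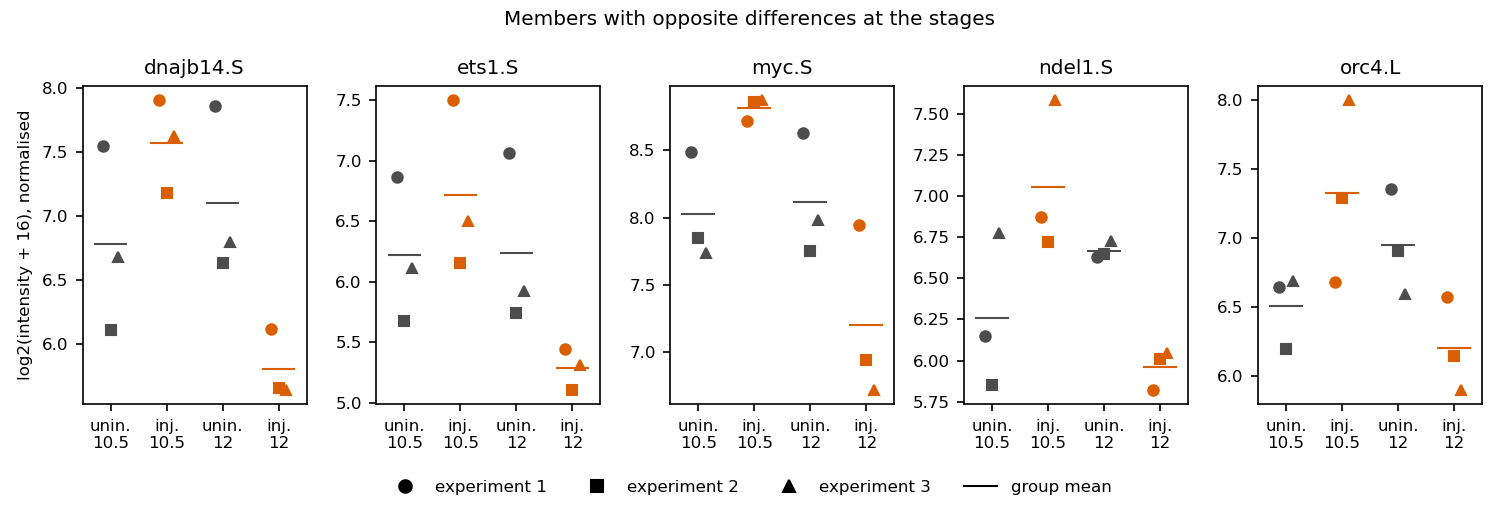
Normalised level, log2(intensity + 16) (vertical axes), of the 5 members whose 3 stage 10.5 pairs all ran opposite to their stage 12 pairs, on each array of the 4 groups (horizontal axes). Injected group means stand above uninjected ones at stage 10.5 and below them at stage 12.

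In injected explants themselves, the median change from stage 10.5 to stage 12 was -0.13 for lower members (from -1.76 to 1.44) and 0.36 for higher ones (from -0.35 to 1.27). Set against the early uninjected level, late injected explants were at a median of -0.94 for lower (from -2.50 to -0.30) and 0.62 for higher members (from 0.29 to 1.48). Late injected means of these genes lay outside the normal means of both stages. The choice fixes this for every member, since its fold limit is larger than its stability limit, so it is no result.

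Probe sets past the same limit in all 3 stage 12 pairs whose uninjected mean moved by more than 0.5 with stage were far more numerous, with 319 higher and 415 lower. At stage 10.5, 164 of those 415 (39.5%) fell and 4 rose, beside 57 of 88 (64.8%) for the stable ones. Of the 319, 69 (21.6%) rose and 1 fell, beside 6 of 31 (19.4%). Medians were -0.46 and 0.37. The difference between stable and unstable sets was not tested. The uninjected stage 10.5 arrays both sorted these sets and enter the stage 10.5 changes, so the shares are not independent of the sorting.

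For some genes stability held for 1 copy and not for the other. The suffixes .L and .S mark the duplicate copies of a gene, on the longer and the shorter chromosome of each related pair. Lower members carried .L in 50 and .S in 38 cases and higher members in 18 and 11, against 3568 and 2610 of the 6352. For lower members, 37 probe sets of the other copy had a mean of at least 6; 33 of them were lower at stage 12, 20 by at least 1.5-fold on average, and 13 of these 20 were not stable in uninjected explants. As background, 3052 of the 6352 were stable, and 415 of the 503 that were lower by the limit in all 3 pairs were not stable. An unstable other copy is thus nothing particular to the members. The copy id2.S gave -1.68 with an uninjected stage difference of 1.66, szl.L gave -1.58 with 0.99, and twsg1.S gave -1.47 with 0.91. Of 28 bright further probe sets of the same copy, 22 were lower, 11 of them by at least 1.5-fold, and 2 were higher by the limit in all 3 pairs, namely those of rnd1.L and cdin1.L. A second gata2.L probe set gave -1.82 at stage 12, with an uninjected stage difference of 0.77. For higher members 7 of 11 bright probe sets of the other copy were higher, 4 of them by at least 1.5-fold on average. These 4 were pebp1.2.L and probe sets of prdx3. Of 6 bright further probe sets of the same copy 3 were higher, 2 of them by at least 1.5-fold on average. Members themselves are among the probe sets counted here: 4 of the other copy and 3 of the same copy for lower members. For higher members they number 2 and 1. The share of all probe sets that were lower or higher on average was not counted. Copies and probe sets can share sequence, so these readings are not independent of each other.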

How the data were processed

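The members and the gene lists were chosen with earlier results of these data known. The deposited values are linear array intensities, 1 per probe set and array, in a single table by the authors; how probes were summarised is not stated in the labels or file. Deposited array medians ran from 49.1 to 145.7 and differed by at most 0.04 (log2) within a pair, and the number of arrays limits the precision. Values were taken as log2(intensity + 16) and quantile normalised. Symbols came from the platform annotation, updated by gene ID: 9304 probe sets had 1 symbol, 195 several and 5992 none, and 2 symbols changed. No genome positions or sequences were used here.

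The stage 10.5 contrast was tested with limma 3.58.1 in R 4.3.3 (lmFit, then eBayes with a trend on intensity), fitted to the 12 arrays with experiment within stage as a block, after the lowest 25% of mean signal was left out, with Benjamini-Hochberg adjustment over 11618 probe sets and a threshold of 0.05. The fit was also run on simulated data with independent noise on each array and no shared experiment effect, so that run did not test the pairing. Same-numbered stage 10.5 arrays deviated together from their group means (correlations of 0.765 to 0.797), and were taken as pairs in the fit. At stage 12 same-numbered arrays correlated by 0.424 to 0.693, but experiments 2 and 3 could not be told apart there: injected 3 correlated with uninjected 2 by 0.555 and injected 2 with uninjected 3 by 0.497. The stage 12 pairs of the choice follow the labels. P-values measure only the spread between these samples. Stage 12 differences and stage differences of uninjected explants chose the members and were not tested. Errors are the SD over 3 pairs at stage 12 and the SE of the fit at stage 10.5.

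Genes named by rule were the 10 per direction with the largest least pair change, up to 8 per direction by adjusted p at stage 10.5, members in gene lists, members opposite between stages, those next to each limit, and copies. The remaining members were named by function after their values were seen. Alternatives covered the pseudocount, normalization, filter, trend, block, each limit and each replicate.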

Additional observations from a re-analysis of the deposited data

Results flagged for a closer look

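For 5 lower members every stage 10.5 pair ran opposite to every stage 12 pair. The share of all probe sets that did so was not counted. In limma's paired fit 4 of 88 lower members (4.55%) rose at stage 10.5, near the 3.31% over all probe sets tested. The difference between stages was not tested, since stage 12 chose the members. The mean stage 10.5 change was 0.79 for dnajb14.S, 0.50 for ets1.S, 0.79 for myc.S, 0.80 for ndel1.S and 0.81 for orc4.L, in 3 of 3 pairs each. In limma's paired fit ets1.S did not pass (adjusted p = 0.166), and none of the 5 passed in the unpaired fit. The copy myc.L did not share the early rise. The copy ndel1.L ran the same way as ndel1.S on average (0.82 at stage 10.5 and -0.50 at stage 12), with 1 stage 12 pair at 0.08. The ets1.L probe sets gave 0.23 and 0.07 at stage 10.5 and 0.38 and -0.08 at stage 12. No group was large enough for a check of single outlying arrays.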

How the results depend on the processing

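Membership depended on the scale and the limits. On the deposited scale 12 probe sets were higher and 146 lower, with a fold limit of 1 (log2) there were 0 and 31, and with a stability limit of 0.25 there were 7 and 44. Leaving out a stage 12 pair or an uninjected stage 10.5 array gave 28 to 94 higher and 74 to 126 lower members, and averaging experiments 2 and 3 at stage 12, chosen after seeing the data, gave 59 higher.

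At stage 10.5 the fit without the replicate block called 1 of the higher members higher, 0 lower members higher and 28 lower, and 22 and 240 over all probe sets. It kept 28 of the 61 calls among lower members and 1 of 6 among higher ones, with 0 signs turned. Fitting stage 10.5 arrays only called 831 probe sets higher. Leaving out 1 replicate, at stage 10.5 in the fit or at stage 12 in the choice, changed the calls and, at stage 12, the members. Of 31 to 94 higher members 1 to 11 rose, and of 88 to 126 lower members 0 to 4 rose and 39 to 76 fell. Over all probe sets, leaving out 1 stage 10.5 replicate gave 64 to 150 higher and 387 to 624 lower calls. Members chosen with a stability limit of 0.25 gave 0 that rose among the higher, and 1 that rose and 30 that fell among the lower. With a fold limit of 1 there were 0 and 25 among the lower, with a median of -1.23. The held-out pair of experiment 3 gave a median of 0.18 for higher members. Of 24 named genes 13 kept their call without the block and 11 lost it, and 0 turned direction under any setting.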
